A study of Mus musculus with 2 samples.

Results

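Splicing regulators and proteins of nuclear speckles were examined in purified, untreated RAW264.7 cells, a line of mouse macrophages that carries Abelson murine leukaemia virus. The 56 genes were taken by name from a set list after Ensembl identifiers had been matched to mm10 gene symbols, and each of the 56 matched 1 of the 52550 gene identifiers counted. Cells had been kept in 3D culture or in 2D culture, and each culture method was represented by 1 RNA-seq library of polyadenylated RNA. The sources used here do not give the method of 3D culture or say whether the cultures were of the same passage or sequenced together. The question is which transcripts differ between the culture methods. With 1 library per method no difference has a replicate check, no p-value was computed, and the 95% intervals below cover counting error only. Reads carry no molecular identifiers, so these intervals may be too narrow even for that error.

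Pre-mRNA splicing starts when the U1 particle binds the 5′ splice site and SF1, U2AF and the U2 particle bind the branch point and the 3′ splice site. SR proteins, which carry stretches rich in arginine and serine, bind exons and recruit these particles, and hnRNP proteins often oppose them. SR proteins and many of their partners gather in nuclear speckles, and kinases of the SRPK and CLK families phosphorylate them and so set where they reside. Many genes of this machinery limit their own output through exons that trigger nonsense-mediated decay (NMD), or through introns that stay in polyadenylated nuclear RNA.

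The libraries held 16652503 counts for 3D culture and 14371084 for 2D culture. Counts were scaled with TMM factors and are given as TMM-scaled CPM, the usual depth-normalised read count. Genes averaging 1 CPM or more over both libraries were taken as measured, which held for 11673 genes and for each of the 56. All 12 macrophage markers had counts in both libraries, with a summed level of 10452 CPM in the 3D library and 3868 CPM in the 2D library. Of 7 hepatocyte markers, 7 had counts in the 3D library, against 3 in the 2D library, where Cyp2e1, Fgb, Serpina1a and Ttr were at 0, and their summed level was 24.5 CPM in the 3D library and 0.57 CPM in the 2D library. Summed counts of fibroblast markers (17 in 3D, 20 in 2D), epithelial markers (12 and 5) and lymphocyte markers (4 and 7) were low in both, and the part of any of these cells in the values below was not tested. Fewer cells of a type and less RNA per cell cannot be told apart in such libraries.

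Transcripts of splicing regulators were on the whole lower in the 3D library, among them those for Prpf39 and the LUC7-like proteins, the kinases Clk1, Clk4 and Prpf4b, and the speckle proteins Pnn and Pnisr. Together the 56 genes held 0.689% of all counts in the 3D library (0.685% to 0.693%, 95% Wilson interval), against 1.501% in the 2D library (1.49% to 1.51%). Their counts ran from 86 to 7592 in the 3D library and from 283 to 13615 in the 2D library. At a ratio of 2 in either direction, 23 of the 56 genes were lower in the 3D library, 2 were higher and 31 lay between. Among all 11673 measured genes, 20.8% were lower by 2-fold or more and 18.7% higher. The median log2 ratio of the 56 genes (3D over 2D) was -0.76, against 0.052 for all measured genes, and 48 of the 56 lay below the all-gene median, as 50% of measured genes do by construction. At a ratio of 4, 11 of the 56 genes were lower in the 3D library and 0 higher, with 6.67% and 2.23% of all measured genes beyond the same limits.

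The directions depend in part on the scaling. Scaling to total counts lowers every log2 ratio by 0.60, and scaling to 22 widely used reference genes, such as Tbp, Hprt and Actb, lowers it by 0.81. Under total counts 36 of the 56 genes were at least 2-fold lower and 0 higher, with 36.5% and 5.59% of all genes beyond the same limits. Under the reference genes 43 were lower and 0 higher, with 42.3% and 3.37% of all genes. Each of the 23 lower calls stood under every scaling tried, though total counts and the reference genes lower every ratio and so could not undo them. Of the 9 genes with a ratio above 1 under TMM scaling, 5 stayed above 1 under total counts (Hnrnpc, Ptbp1, Sf1, Srsf9 and U2af2) and 4 of these under the reference genes, where Srsf9 turned. Relative to the all-gene median, the median of the 56 genes was -0.82 with TMM, -0.80 with total counts and -0.81 with the reference genes. Scaling moves every gene of a library alike, so this value could change only through which genes pass as measured.

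**Figure D1:**
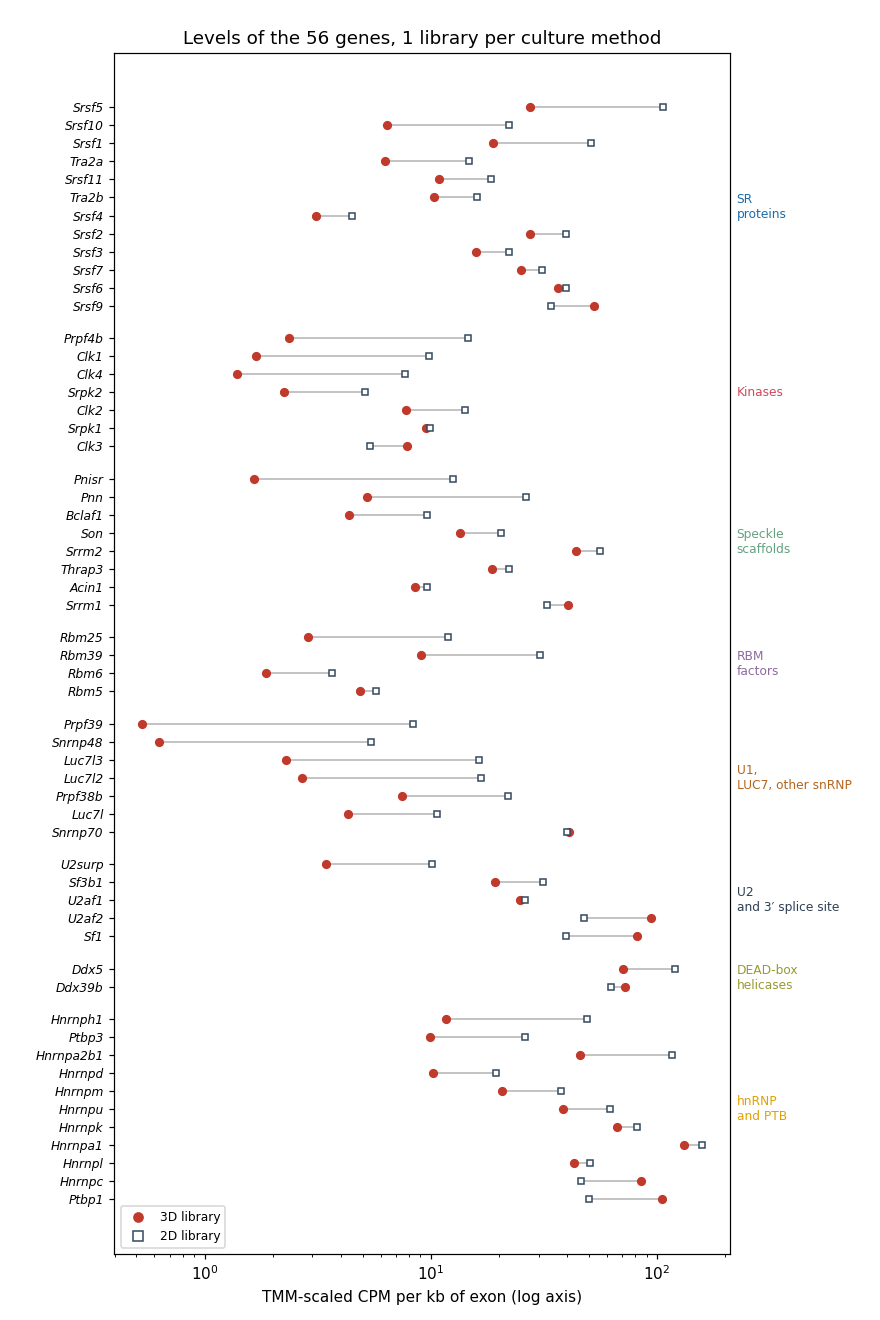
Levels of the 56 genes in TMM-scaled CPM per kb of annotated exon (log axis), with 1 filled circle for the 3D library and 1 open square for the 2D library per gene, grouped by role. Prpf39 has the lowest level in the 3D library, at 0.531 CPM per kb, and Hnrnpa1 the highest in both, at 132 in 3D and 159 in 2D.

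Per kb of exon, Hnrnpa1 was the most abundant of the 56 genes in both libraries, with 132 CPM per kb in the 3D library, against 159 in the 2D library. The next in the 3D library were Ptbp1 (106 CPM per kb), U2af2 (94.3), Hnrnpc (84.9) and Sf1 (82.0), which in the 2D library ranked 11, 13, 14 and 16. The next in the 2D library were Ddx5 (120 CPM per kb), Hnrnpa2b1 (117) and Srsf5 (106), which in the 3D library ranked 7, 10 and 18. These levels divide by all annotated exon sequence, retained-intron transcripts included, so they understate genes with many such transcripts.

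Of the 12 SR and SR-like proteins, 4 were at least 2-fold lower in the 3D library, 0 were higher, and the median log2 ratio was -0.59. For this and the other roles, calls compare with 20.8% lower and 18.7% higher among all measured genes. Srsf5 (ENSMUSG00000021134, chromosome 12, 80945504 to 80950507) had 1481 counts (109 CPM) in the 3D library and 7467 counts (422 CPM) in the 2D library. It was 3.86-fold lower in the 3D library (95% interval 3.65 to 4.08), the largest difference of the group. Srsf10, whose dephosphorylated form represses splicing, had 45.0 CPM in the 3D library and 155 CPM in the 2D library, 3.45-fold lower (3.16 to 3.77). Srsf1, the founding splicing factor of the family, had 107 CPM in the 3D library and 291 CPM in the 2D library, 2.71-fold lower (2.56 to 2.88). The fourth was Tra2a, which binds purine-rich exonic enhancers, 2.36-fold lower (2.15 to 2.59).

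The other 8 SR genes stayed within 2-fold, with log2 ratios from -0.77 for Srsf11 to 0.63 for Srsf9. Srsf2, a classical marker of speckles, had 81.6 CPM in the 3D library and 117 CPM in the 2D library. Srsf3, the smallest SR protein, had 125 and 176 CPM, and Srsf6 had 176 CPM in the 3D library and 191 CPM in the 2D library. Srsf9, a short SR protein, was the one member of the group above the all-gene median, with 86.8 CPM in the 3D library and 56.2 CPM in the 2D library. Tra2b, the paralog of Tra2a, was 1.56-fold lower (1.46 to 1.67), so that Tra2b made up 68.7% of the pair's counts in the 3D library (66.6% to 70.8%), against 59.2% in the 2D library (57.8% to 60.7%).

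Among the 7 kinases, 4 were at least 2-fold lower in the 3D library and 0 higher, and the 2 families each split. Clk1 (ENSMUSG00000026034, chromosome 1, 58410189 to 58424066), a dual-specificity kinase that phosphorylates SR proteins in the nucleus, had 186 counts in the 3D library, against 1406 in the 2D library, a 5.78-fold lower level (4.96 to 6.78). Its close relative Clk4 had 109 counts in the 3D library, against 785 in the 2D library, 5.51-fold lower (4.505 to 6.80). Clk2 was 1.81-fold lower (1.64 to 2.01), and Clk3 had 66.1 CPM in the 3D library and 45.7 CPM in the 2D library, a ratio of 1.44 (1.31 to 1.59) that does not stay above 1 with the scaling to total counts or reference genes. The make-up of the family within each library does not depend on scaling. Clk1 and Clk4 gave 10.6% (95% Wilson interval 9.28% to 12.2%) and 6.23% (5.19% to 7.46%) of the CLK counts in the 3D library, against 32.5% (31.1% to 33.9%) and 18.1% (17.0% to 19.3%) in the 2D library. Clk3 gave 51.1% of them in 3D culture (48.8% to 53.5%) and 18.7% in the 2D library (17.6% to 19.9%), while Clk2 gave 32.0% (29.9% to 34.2%) and 30.7% (29.3% to 32.1%).

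The CLK genes also differ in base composition, which followed the ratio across all genes (below), so their most alike coding stretch of 90 bases is shown. Capitals mark the 31 positions at which the 4 genes are not identical, and lower case the 59 that they share (GENCODE M21 transcripts, mm10).
Clk1: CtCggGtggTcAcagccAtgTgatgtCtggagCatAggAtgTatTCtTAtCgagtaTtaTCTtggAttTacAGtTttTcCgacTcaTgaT
Clk4: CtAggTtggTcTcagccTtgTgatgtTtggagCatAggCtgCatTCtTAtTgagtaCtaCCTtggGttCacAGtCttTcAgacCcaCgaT
Clk2: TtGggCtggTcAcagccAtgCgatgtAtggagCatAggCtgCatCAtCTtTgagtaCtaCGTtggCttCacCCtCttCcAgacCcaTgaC
Clk3: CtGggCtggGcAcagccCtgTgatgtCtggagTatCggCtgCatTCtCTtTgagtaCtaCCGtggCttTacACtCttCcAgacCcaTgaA
The stretch spans 2 exons in each gene, at chr1:58413018-58413470 on the minus strand for Clk1, chr11:51277855-51280366 on the plus strand for Clk4, chr3:89175160-89175400 on the plus strand for Clk2 and chr9:57752186-57752725 on the minus strand for Clk3. Of the 31 differing positions, G or C stands at 10 in Clk1, 14 in Clk4, 19 in Clk2 and 20 in Clk3. The GC content of the whole protein-coding transcript runs in the same order, with 40.9% for Clk1, 43.3% for Clk4, 55.4% for Clk2 and 58.8% for Clk3, as do the log2 ratios of -2.53, -2.46, -0.86 and 0.53.

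The SRPK kinases phosphorylate SR proteins mainly in the cytoplasm and promote their entry into the nucleus. Srpk1 had 118 CPM in the 3D library and 123 CPM in the 2D library, with an interval that included a ratio of 1 (0.904 to 1.03). Srpk2 had 31.2 CPM in the 3D library and 71.1 CPM in the 2D library, 2.28-fold lower (2.04 to 2.55). Prpf4b, a kinase that acts in the assembly of the spliceosome, showed the largest difference of the 7 kinases, with 270 counts in the 3D library, against 2181 in the 2D library, 6.18-fold lower (5.44 to 7.04).

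**Figure D2:**
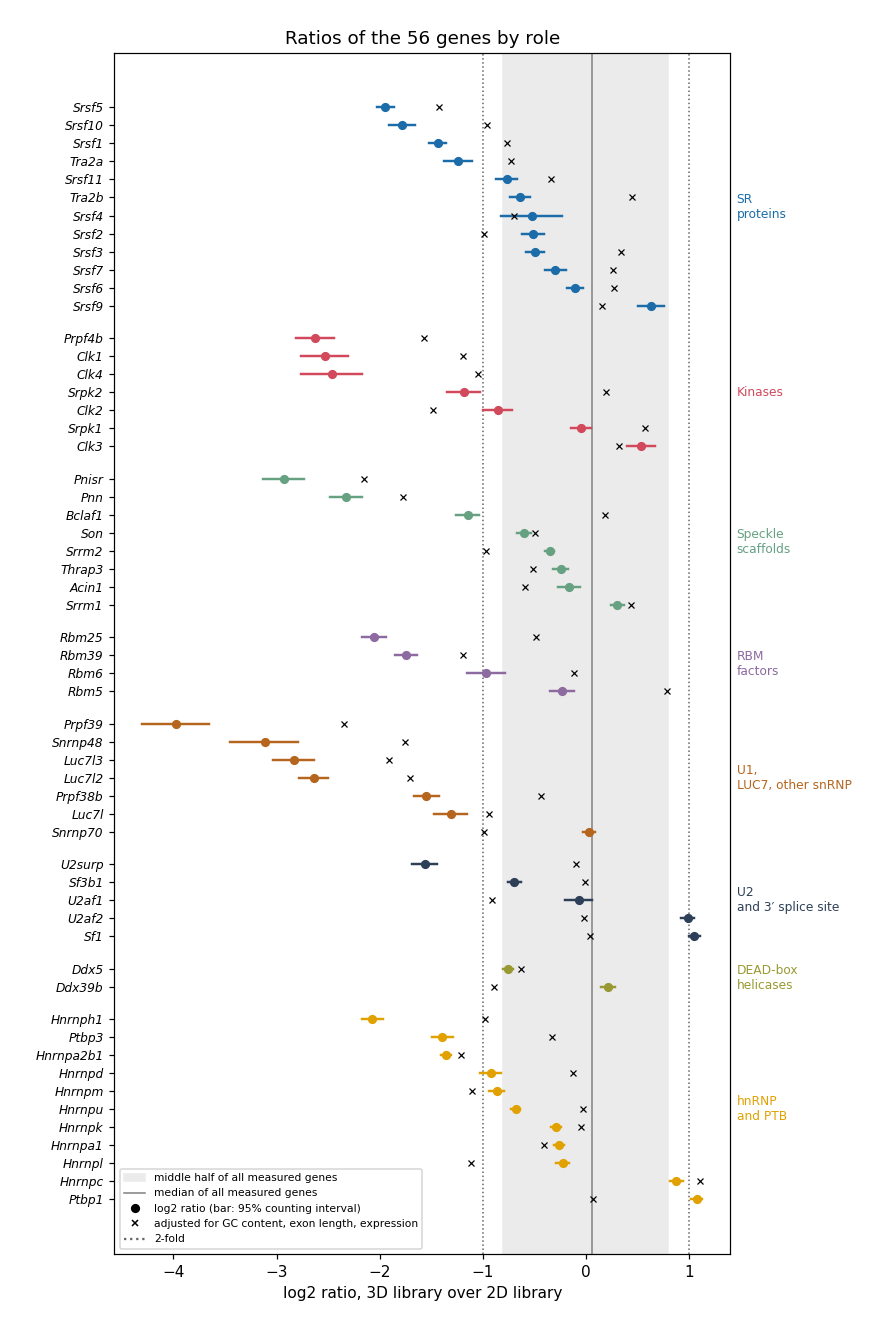
The log2 ratio of the 3D library over the 2D library for each of the 56 genes (circles) with its 95% counting interval (bars) and the value after adjustment for 3 gene properties, namely GC content, exon length and mean expression (crosses). The grey band is the interquartile range of all measured genes, the solid line their median of 0.052 and the dotted lines 2-fold; Prpf39 lies farthest to the left at -3.97 and Ptbp1 farthest to the right at 1.07.

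U1-associated and other snRNP proteins were the role with the lowest median log2 ratio, at -2.64, and 6 of the 7 genes were at least 2-fold lower in the 3D library. Prpf39 (ENSMUSG00000035597, chromosome 12, 65036333 to 65063386), whose yeast counterpart is part of the U1 particle, had 86 counts in the 3D library, against 1762 in the 2D library. At 6.36 CPM in the 3D library and 99.6 CPM in the 2D library it was 15.7-fold lower (12.6 to 19.7), and 0.805% of measured genes had a lower ratio. Snrnp48, a protein of the U11/U12 particle of the minor spliceosome, had 86 counts in the 3D library, against 972 in the 2D library, 8.65-fold lower (6.93 to 10.9). Prpf38b, related to a yeast spliceosomal factor, was 2.93-fold lower (2.69 to 3.18). Snrnp70, the U1 protein that contacts SR proteins at the 5′ splice site, had 312 CPM in the 3D library and 306 CPM in the 2D library, and its interval included a ratio of 1 (0.979 to 1.06).

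The 3 LUC7-like genes encode mammalian relatives of yeast Luc7, which affects the choice of 5′ splice sites. Luc7l3 had 226 counts in the 3D library, against 2107 in the 2D library, 7.13-fold lower (6.22 to 8.22). Luc7l2 had 439 and 3580 counts, 6.24-fold lower (5.65 to 6.91), and Luc7l had 438 counts in the 3D library, against 1422 in the 2D library, 2.48-fold lower (2.23 to 2.77). Luc7l thus gave 39.7% of the family's counts in the 3D library (36.9% to 42.6%), against 20.003% in the 2D library (19.1% to 20.9%). Luc7l, Luc7l2 and Luc7l3 have transcripts with a GC content of 47.0%, 46.4% and 41.2%. Their log2 ratios of -1.31, -2.64 and -2.83 run in the same order, as in the CLK genes, though Luc7l and Luc7l2 are nearly alike in GC content. The SRPK, PTB and U2AF pairs also run with GC content, but the TRA2 pair runs the other way. Tra2a and Tra2b have a GC content of 44.1% and 41.8% and log2 ratios of -1.24 and -0.64. The most alike coding stretch of 90 bases in Luc7l2 and Luc7l is shown, with the 16 differing positions in capitals.
Luc7l2: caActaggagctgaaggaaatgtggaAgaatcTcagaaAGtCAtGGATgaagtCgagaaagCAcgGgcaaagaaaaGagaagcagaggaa
Luc7l: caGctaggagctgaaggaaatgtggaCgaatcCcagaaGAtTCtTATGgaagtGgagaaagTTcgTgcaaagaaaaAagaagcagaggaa
The stretch lies at chr6:38591345-38592621 in Luc7l2 and chr17:26267272-26275676 in Luc7l (mm10, plus strand, 2 exons each). G or C stands at 8 of the differing positions in Luc7l2 and at 7 in Luc7l.

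Of the 8 speckle scaffolds and SR-related proteins, 3 were at least 2-fold lower in the 3D library and 0 higher. Pnisr, an SR-rich partner of pinin, had 227 counts in the 3D library, against 2262 in the 2D library, 7.62-fold lower (6.65 to 8.78). Pinin itself, Pnn, an SR-related protein that also resides at desmosomes of epithelial cells, had 30.2 CPM in the 3D library and 151 CPM in the 2D library, 5.02-fold lower (4.52 to 5.58). Bclaf1, which acts in mRNA processing and the DNA damage response, was 2.21-fold lower (2.05 to 2.39), and its relative Thrap3 was 1.19-fold lower (1.13 to 1.25). The core scaffolds of speckles differed less. Son had 201 CPM in the 3D library and 306 CPM in the 2D library, 1.52-fold lower (1.45 to 1.59), and Srrm2 had 561 and 718 CPM, 1.28-fold lower (1.24 to 1.32). Srrm1, a splicing coactivator, had a ratio of 1.23 (1.18 to 1.29), which is also below 1 when scaled to total counts or reference genes. Acin1, a subunit of a complex that joins the exon junction complex, was 1.12-fold lower (1.04 to 1.21). Malat1, a noncoding RNA of speckles that is not among the 56 genes, had 820 counts in the 3D library, against 17150 in the 2D library.

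The 4 RBM genes lay below the all-gene median, 2 of them at least 2-fold lower in the 3D library. Rbm25, which regulates splicing of an apoptosis gene, had 49.96 CPM in the 3D library and 207 CPM in the 2D library, 4.15-fold lower (3.82 to 4.51). Rbm39, an SR-related protein akin to U2AF, had 63.0 CPM in the 3D library and 211 CPM in the 2D library, 3.35-fold lower (3.11 to 3.62). Rbm6 was 1.959-fold lower (1.73 to 2.22), just inside 2-fold, while its neighbour and relative Rbm5 was 1.17-fold lower (1.08 to 1.27).

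The 5 factors of the branch point and 3′ splice site had a median log2 ratio of -0.075 and differed in both directions. Sf1, which binds the branch point first, had 509 CPM in the 3D library and 246 CPM in the 2D library, a ratio of 2.07 (1.99 to 2.15). U2af2, the large U2AF subunit that binds the polypyrimidine tract, had 388 CPM in the 3D library and 196 CPM in the 2D library, a ratio of 1.98 (1.89 to 2.06), just inside 2-fold. The small subunit gene U2af1 had 64.4 CPM in the 3D library and 67.8 CPM in the 2D library, with an interval that included 1 (0.869 to 1.04). Sf3b1, which holds the branch site in the U2 particle, was 1.62-fold lower (1.55 to 1.70). U2surp, an SR-related protein bound to U2, was 2.96-fold lower (2.72 to 3.22), and its log2 ratio was -0.097 after the adjustment for gene properties (below). Both DEAD-box helicases stayed within 2-fold. Ddx5 had 411 CPM in the 3D library and 694 CPM in the 2D library, and Ddx39b, which acts in U2 recruitment and mRNA export, had 274 CPM in the 3D library and 237 CPM in the 2D library.

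Of the 11 hnRNP and PTB genes, 3 (27.3%) were at least 2-fold lower in the 3D library and 1 (9.09%) was higher, against 20.8% and 18.7% of all measured genes. Hnrnph1, which binds runs of G, had 68.1 CPM in the 3D library and 287 CPM in the 2D library, 4.20-fold lower (3.92 to 4.52). Hnrnpa2b1 had 299.7 CPM in the 3D library and 769.8 CPM in the 2D library, 2.57-fold lower (2.48 to 2.66). The 1 gene past 2-fold upward was Ptbp1, described below. Hnrnpc, which binds runs of U, stayed within 2-fold, with 367 CPM in the 3D library and 200.5 CPM in the 2D library, a ratio of 1.83 (1.75 to 1.91) and a log2 ratio of 0.87 that is 0.066 when scaled to the reference genes. Hnrnpa1, Hnrnpk and Hnrnpl were 1.202-fold, 1.22-fold and 1.17-fold lower, and Hnrnpu, Hnrnpm and Hnrnpd 1.61-fold, 1.82-fold and 1.90-fold lower.

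The polypyrimidine tract binding proteins repress exons next to pyrimidine-rich stretches. Ptbp1 (ENSMUSG00000006498, chromosome 10, 79854427 to 79864771) had 500.5 CPM in the 3D library and 239 CPM in the 2D library, a ratio of 2.10 (2.02 to 2.18). Ptbp3, its paralog of blood cells, had 74.5 CPM in the 3D library and 196 CPM in the 2D library, 2.63-fold lower (2.45 to 2.82). Ptbp1 gave 87.0% of the pair's counts in the 3D library (86.3% to 87.8%), against 54.9% in the 2D library (53.8% to 56.04%). Their coding sequences match at 71.8% of 1644 aligned positions, and the most alike stretch of 90 bases is shown with the 13 differing positions in capitals.
Ptbp3: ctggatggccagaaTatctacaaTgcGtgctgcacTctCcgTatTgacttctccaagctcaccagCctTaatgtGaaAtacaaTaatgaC
Ptbp1: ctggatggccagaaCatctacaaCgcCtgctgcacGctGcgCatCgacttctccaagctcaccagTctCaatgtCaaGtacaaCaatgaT
The stretch lies within 1 exon, at chr4:59493268-59493357 on the minus strand for Ptbp3 and chr10:79859784-79859873 on the plus strand for Ptbp1 (mm10). G or C stands at 5 of the 13 differing positions in Ptbp3 and at 11 in Ptbp1, and the protein-coding transcripts have a GC content of 38.5% and 55.2%.

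**Figure D3:**
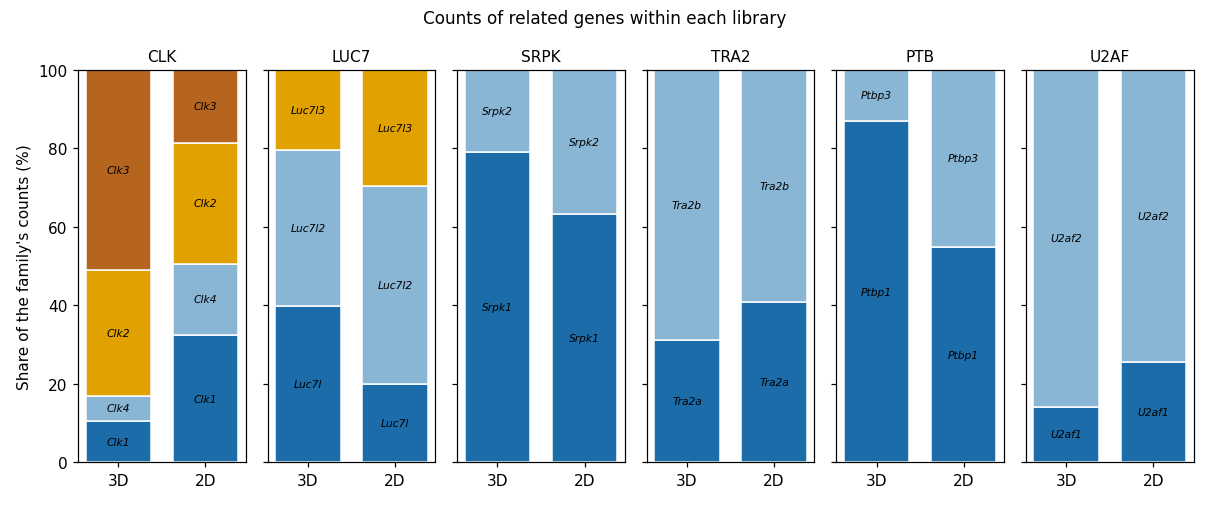
Share of each gene in the counts of its family (%), for the 3D library (left bar) and the 2D library (right bar) of 6 families. Clk3 takes 51.1% of the CLK counts in the 3D library, against 18.7% in the 2D library, and Ptbp1 takes 87.0% of the PTB pair in 3D and 54.9% in 2D; shares are of counts and are not corrected for gene length.

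The ratio followed the GC content of the transcript, both across all genes and among the splicing regulators. Over 10537 measured protein-coding genes split into 10 bins by GC content, the bin medians of the log2 ratio ran from -1.33 at a median GC content of 40.3% to 0.95 at 59.9%. Across the 56 genes, Spearman's rho between the GC content of the protein-coding transcript and the log2 ratio was 0.60 and Pearson's r 0.63, over genes of the same 2 libraries, which are not independent replicates. The 56 genes had a median transcript GC content of 44.0%, against 50.5% for the other measured protein-coding genes. Of the 36 splicing genes in the lowest tertile of GC content (below 47.3%), 22 were at least 2-fold lower (61.1%), against 42.3% of the 3476 other genes in that tertile. In the middle tertile 1 of 8 was lower, Srsf1, against 10.02% of other genes. In the highest tertile 0 of 12 were lower, against 4.48%, and 2 of 12 were higher, Ptbp1 and Sf1, against 38.9%. The median log2 ratio of the splicing genes in the lowest, middle and highest tertile was -1.34, -0.44 and 0.12, against -0.81, 0.18 and 0.79 for the other genes.

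**Figure D4:**
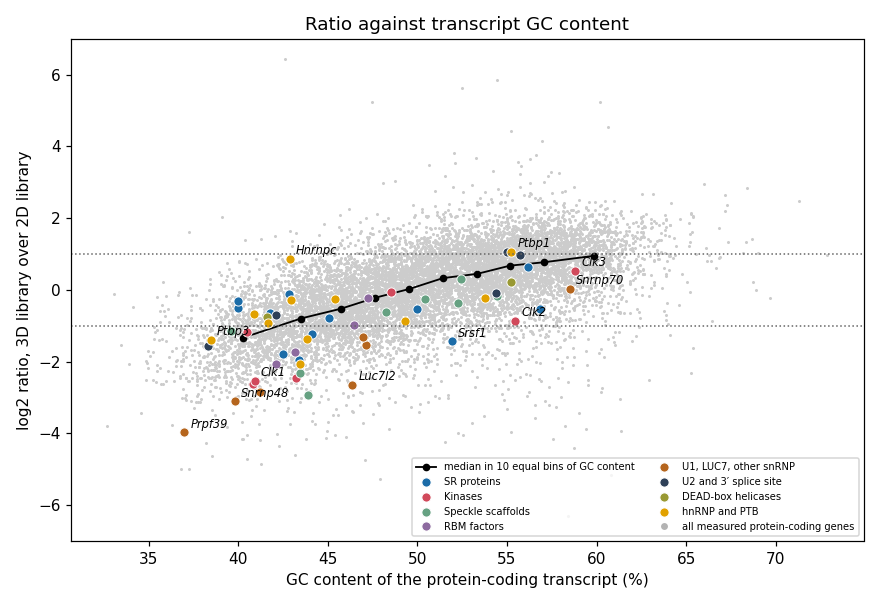
The log2 ratio of the 3D library over the 2D library against the GC content (%) of the protein-coding transcript, for all measured protein-coding genes (grey), the 56 genes (coloured by role) and the median in 10 bins of GC content (black line; the bins hold nearly equal numbers of genes). The line runs from -1.33 to 0.95; Luc7l2, Srsf1, Clk2 and Snrnp70 lie below it and Hnrnpc above it.

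After the log2 ratio of all genes was adjusted for 3 properties (GC content, exon length, mean expression), 15 of the 56 genes were at least 2-fold lower and 1 was higher, with 8.73% and 11.7% of all genes beyond the same limits. The gene above 2-fold was Hnrnpc, at an adjusted log2 ratio of 1.10. Of the 23 genes lower before adjustment, 12 stayed at least 2-fold lower and 2 turned, Srpk2 (0.19) and Bclaf1 (0.18). The other 9 kept the direction within 2-fold, from -0.98 for Hnrnph1 to -0.097 for U2surp. Of all 56 genes, 11 changed sign, 8 upward (among them Rbm5 to 0.78 and Tra2b to 0.44) and 3 downward (Ddx39b to -0.90, Snrnp70 to -0.99 and U2af2 to -0.024). Adjusted values were -2.35 for Prpf39, -2.15 for Pnisr, -1.91 for Luc7l3, -1.77 for Pnn, -1.75 for Snrnp48, -1.70 for Luc7l2, -1.57 for Prpf4b and -1.198 for Clk1. Those 8 genes were at least 2-fold lower under all 4 adjustments tried. The PTB genes drew closer after adjustment, with Ptbp3 at -0.33 and Ptbp1 at 0.070. The CLK genes spanned a narrower range, with Clk2 at -1.48, Clk4 at -1.05 and Clk3 at 0.32. Clk2 and Clk3 moved apart, however, and Clk2 became the lowest of the family. Hnrnpl stood at -1.11 after adjustment, and Sf1 at 0.040. By role, the median adjusted log2 ratio was -1.70 for U1-associated and other snRNP proteins, of which 4 of 7 were at least 2-fold lower. It was -1.05 for kinases, -0.76 for helicases, -0.55 for speckle scaffolds and -0.52 for SR proteins. For hnRNP and PTB genes it was -0.33, for RBM genes -0.30 and for branch point and 3′ splice site factors -0.024.

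The adjusted values depend on which transcript gives the GC content. The adjustment above used the longest annotated transcript, which was a retained-intron transcript for 19 of the 56 genes (33.9%), against 15.0% of the other protein-coding genes. With GC content and length taken from the protein-coding transcript, a choice made after seeing the data, 21 of the 56 genes were at least 2-fold lower and 1 higher, against 7.27% and 9.24% of all genes, and 17 of the 23 lower calls stood. Prpf38b, whose longest transcript is a retained-intron one, stood at -0.44 with that transcript (GC content 38.8%) and at -1.47 with the protein-coding transcript (47.1%). The order of the roles changed too, with a median of -0.87 for RBM genes and -0.12 for hnRNP and PTB genes. It was -1.89 for U1-associated and other snRNP proteins, -1.27 for kinases and -0.69 for SR proteins. Speckle scaffolds stood at -0.60, helicases at -0.59 and branch point and 3′ splice site factors at -0.0021.

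Splicing genes carried more annotated unproductive transcripts than other genes. The list was not drawn from transcript annotation, but it was set down with the remark that many of its genes keep introns. At least 1 retained-intron transcript was annotated for 51 of the 56 genes (91.1%), against 61.7% of 10481 other measured protein-coding genes. At least 1 NMD transcript was annotated for 49 (87.5%), against 30.3%, and 46 of the 56 had both. The splicing genes also had more transcripts annotated in all, with a median of 11 against 5. Their median level was higher (121 against 35.0 CPM) and their median exon length greater (7326.5 against 4559 bases). The part of these properties in the annotation was not tested. The number of retained-intron transcripts did not track the ratio closely among the 56 genes (Spearman's rho 0.15, Pearson's r 0.12). The 18 genes with 5 or more of them had a median log2 ratio of -0.74, and the 38 with fewer had -0.81. Counts per gene do not separate spliced from intron-retaining RNA, so intron retention itself was not measured.

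Other parts of the splicing machinery were compared through 10 lists of 157 genes, of which 156 were in the files and 151 were measured. Of these 151 genes, 26 were at least 2-fold lower in the 3D library and 20 higher. This is 17.2% and 13.2%, against 20.8% and 18.7% of all measured genes, and the median log2 ratio was 0.033. Among 67 measured genes for Sm, LSm and other U1 and U2 snRNP proteins, SF3 and other U2 factors, the tri-snRNP and the PRP19 and catalytic proteins, 3 (4.48%) were lower and 11 (16.4%) higher, with a median of 0.34. Sf3a2 and Sf3b4, subunits of the U2 particle, were 3.74-fold (3.48 to 4.02) and 2.92-fold (2.76 to 3.09) higher, and stood at 0.52 and 0.23 (log2) after adjustment. Of the 3 higher genes in the list of Sm, LSm and other snRNP proteins, the 2 with the highest ratios were Snrpd2, an Sm protein gene, at 127 CPM in the 3D library and 52.6 CPM in the 2D library, and Snrpa, for a U1 protein that is no Sm protein, at 158 and 70.6 CPM. The GTPase gene Eftud2 of the tri-snRNP had 323 CPM in the 3D library and 142 CPM in the 2D library. After adjustment Snrpd2, Snrpa and Eftud2 stood at 0.53, 0.51 and 0.55 (log2), within 2-fold. The 3 lower core genes were Snrpb2 (2.36-fold, 2.07 to 2.70), Lsm8 (2.20-fold, 1.86 to 2.60) and Cwc27 (2.34-fold, 1.85 to 3.00). After adjustment these stood at -0.25, 0.0996 and -0.56 (log2), so Lsm8 turned. Of the 67 core genes, 0 were then at least 2-fold lower and 5 higher, against 8.73% and 11.7% of all genes. With the adjustment by the protein-coding transcript 1 was lower and 3 higher, against 7.27% and 9.24% of all genes.

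Of 25 other measured splicing regulators, 10 (40%) were at least 2-fold lower in the 3D library and 2 (8%) higher, with a median of -0.70. The shares among all measured genes were 20.8% and 18.7%. Arglu1, an arginine-rich speckle protein, had 15.7 CPM in the 3D library and 126 CPM in the 2D library, 8.02-fold lower (6.96 to 9.27; adjusted log2 ratio -1.93). Tia1, which aids U1 at weak 5′ splice sites and forms stress granules, had 8.87 CPM in the 3D library and 58.0 CPM in the 2D library, 6.54-fold lower (5.41 to 7.97; adjusted -1.25). Scaf1 and Cherp were 2.57-fold and 2.32-fold higher, and stood at 0.21 and 0.19 (log2) after adjustment. Of 16 other hnRNP genes, 4 (25%) were lower and 2 (12.5%) higher. Ptbp2, the PTB paralog of neurons, had 63 counts in the 3D library, against 698 in the 2D library, 8.48-fold lower (6.54 to 11.2), and Hnrnpdl was 3.94-fold lower (3.56 to 4.38). After adjustment Ptbp2 stood at -0.96 (log2), within 2-fold, and Hnrnpdl at -1.81. Pcbp2 and Pcbp1, which bind runs of C, were 3.12-fold (2.94 to 3.31) and 2.23-fold (2.16 to 2.31) higher, and after adjustment Pcbp2 stood at 2.04 (log2) while Pcbp1 turned to -0.50.

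Of 13 measured genes for the exon junction and mRNA export complexes, 2 (15.4%) were lower and 4 (30.8%) higher, against 20.8% and 18.7% of all measured genes. Among them, Thoc2, an export complex subunit, was 4.91-fold lower (4.37 to 5.52) and Sap18 2.33-fold higher (2.17 to 2.50). Of 12 genes for paraspeckle and 3′-end factors, 3 (25%) were lower and 1 (8.33%) higher, among them Taf15 at 2.93-fold lower (2.69 to 3.19) and Rbm14 at 2.85-fold higher (2.56 to 3.17). The adjusted log2 ratios were -1.96 for Taf15 and 0.74 for Rbm14, the latter within 2-fold. Neat1, the RNA scaffold of paraspeckles, had 821 counts in the 3D library, against 24337 in the 2D library. Of 10 NMD factors, 3 (30%) were lower and 0 higher, among them the kinase gene Smg1, 4.11-fold lower (3.81 to 4.43), and Upf2, 3.12-fold lower (2.65 to 3.69). Smg1 stood at -1.22 (log2) after adjustment and Upf2 at -0.80, within 2-fold. In the minor spliceosome list 1 of 8 genes (12.5%) was lower, Rnpc3, 2.63-fold (2.12 to 3.27), and 0 were higher. Rnpc3 turned to 0.84 (log2) after adjustment. No difference between any of these lists and the 56 genes was tested, since each rests on the same 2 libraries.

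**Figure D5:**
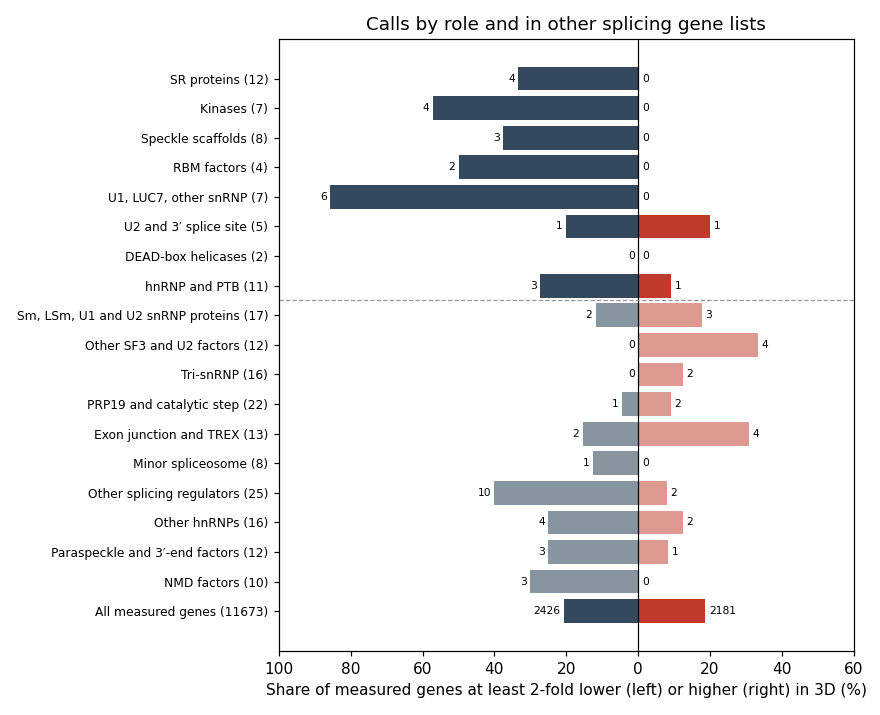
Share of measured genes (%) at least 2-fold lower (left) or at least 2-fold higher (right) in the 3D library, for the 8 roles among the 56 genes (above the dashed line), 10 other lists of splicing genes and all measured genes, with the number of measured genes in parentheses and of calls beside each bar. U1, LUC7 and other snRNP proteins have 6 of 7 genes lower, against 20.8% of all genes, and all calls shown are before adjustment for gene properties.

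Some of the counts are uncertain for reasons of sequence. A pseudogene at least 95% identical over at least 100 bases was annotated for 15 of the 56 genes, and for 5 of them (Hnrnpa1, Hnrnpk, Srsf5, Thrap3 and U2af1) these copies held more than 5% of the gene's own counts in at least 1 library. Exons of 19 of the 56 genes overlap exons of a gene on the other strand, among them Prpf39, Prpf4b, Luc7l2 and Clk3. The kit marks the strand, but the sources used here do not say whether the counting used it, so these counts may hold reads of the partner.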

How the data were processed

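The authors deposited 1 table per library of whole-number read counts by Ensembl gene. The submitters' processing notes name Trimmomatic, HISAT2, HTSeq and mm10; for versions, annotation release, strand option and the handling of multiple matches, nothing is given in the sources used here. Per the labels' protocols, extraction used TRIzol and library preparation a stranded Illumina kit for mRNA. Of 52550 identifiers, 52403 (99.7%) matched GENCODE M21.

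Counts were scaled with TMM factors (edgeR 4.0.16, R 4.3.3), 0.813 for the 3D and 1.23 for the 2D library. The ratio was CPM in 3D over CPM in 2D, with an exact Clopper-Pearson 95% interval conditional on the summed counts. No test was possible with 1 library per group. A count of 0, which allows up to 0.18 (3D) or 0.209 (2D) CPM of total counts, was set to 3 counts. Log2 ratios were adjusted by regression on natural splines (patsy 1.0.2, 4 degrees of freedom each); 99.9% of measured genes had the needed properties. Alternatives used DESeq2 1.42.0 size factors and other settings given at the end. Copies were sought with BLAST 2.17.0 and coding sequences aligned with MAFFT v7.526. The code was tested on simulated counts.

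The members and lists were chosen with earlier results of these data known. All members may be named; of each other list, the 2 highest and 2 lowest genes at least 2-fold different with a mean of at least 5 CPM, plus Malat1 and Neat1, were eligible, and not all are described.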

Additional observations from a re-analysis of the deposited data

How the results depend on the processing

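The count of 23 genes at least 2-fold lower could not change without a filter, with a minimum mean of 5 CPM or over protein-coding genes alone. These settings keep the TMM factors, and each of the 56 genes is protein-coding and averages at least 13.5 CPM. The count stayed at 23 with DESeq2 size factors or upper quartiles as scaling and with 1 CPM as pseudocount. The count was also 23 after thinning (0.5 of the smaller total) and with the interval bound nearest to 1 in place of the ratio. It became 36 under total counts, 43 under the reference genes, 15 after adjustment for all 3 properties, 9 after adjustment for GC content only (11.6% of all genes) and 11 at a threshold of 4-fold. The count of 2 higher genes became 0 under total counts, the reference genes and a threshold of 4-fold. It became 1 with the interval bound and without members that have copies or same-strand overlaps. It was also 1 with each of the 4 adjustments, where the gene was Hnrnpc and both Ptbp1 and Sf1 lay within 2-fold. It became 5 at a threshold of 1.5-fold, and 3 with DESeq2 size factors and with upper quartiles, where U2af2 passed 2-fold. The median relative to all genes, -0.82, became -0.67 without a filter, -0.63 and -0.50 after the adjustments for all 3 properties and for GC content only, -0.66 after adjustment for GC content of the coding sequence and -1.09 over the 38 members without copies or overlaps. Of the 56 genes, 11 changed sign after adjustment for all 3 properties, 17 for GC content only, 15 by the protein-coding transcript and 7 by GC content of the coding sequence. Among the 23 lower genes, Bclaf1 turned to 0.18 (all 3 properties), 0.22 (GC content only) and 0.080 (protein-coding transcript), Srpk2 turned to 0.19, 0.068 and 0.22, and Ptbp3 turned to 0.070 (GC content only). The 2 adjustments by protein-coding transcript and by coding sequence were chosen after seeing the data. The adjustments remove any biological difference that runs along the same properties, and the cause of the trend was not tested. No paired analysis was possible because each group holds 1 library, so leaving out 1 library in turn was not possible either. The fewest counts of any of the 56 genes in a library were 86, so counting error limits the ratios of Prpf39 and Snrnp48 most, and the spread between cultures is unknown.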
